A study of Mus musculus with 12 samples.

Results

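The TRIM genes encode the tripartite motif proteins, a family of ubiquitin ligases that typically share a RING finger, B-box zinc fingers and a coiled coil. The genes described here were all those in the deposited 4 h and 24 h comparison tables whose symbol is Trim followed by a number, that are annotated as protein coding and that reached 20 counts summed over the 12 libraries. That gave 58 of the 29030 genes in the tables. Trim54 was excluded by rule, and Trim40 with 6 counts and Trim55 with 14 counts did not reach the minimum. The cells were primary fibroblasts from hearts of C57BL/6 mice, grown in DMEM with serum. They received 6 µM MCB-613-10-1, which the series calls a derivative of MCB-613, for 4 h or 24 h, or ethanol vehicle for 4 h or 24 h, with 3 RNA sequencing libraries in each of the 4 groups. The labels name no genetic change in any group and do not say whether the libraries of a group came from separate cultures or animals, so p-values measure the spread between these libraries, which may be technical.

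TRIM proteins attach ubiquitin to their targets through the RING finger, and the domain at their C-terminal end decides what they bind. The largest class carries a PRY-SPRY domain, and many of its genes, such as the mouse Trim30 and Trim12 copies, are induced by interferon through the interferon-stimulated response element and act in antiviral defence. Other classes carry a PHD finger with a bromodomain and act on chromatin (Trim24, Trim28, Trim33, Trim66), carry NHL repeats (Trim2, Trim3, Trim32, Trim71), or are anchored in a membrane (Trim13, Trim59). Trim16 and Trim21 are known to act on the NRF2 and SQSTM1 system, which answers oxidative stress; the title of the series names NRF2.

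RefSeq promoter windows (GRCm38.p6, from 250 bases before to 50 after a transcript start) were matched by symbol for 46 of the 58 genes. The windows were searched on both strands for the core of the interferon-stimulated response element, GAAANNGAA, which reads as its reverse complement in most lines below. It occurred in 12 of the 46 genes, and in 8.56% of all 32851 windows and 9.76% of the 27025 genes with a window. A list of 15 TRIM genes known as interferon-induced or antiviral is called interferon-type in what follows. Of its 14 genes with a window, 10 held the element, as did 2 of the other 32 TRIM genes (Trim2 and Trim7). The stretches below show that element, in capitals, in 8 of those genes, in the direction of the gene and with at most 30 bases past the start. The 8 genes shown were chosen from those that were lower in treated than in vehicle cells at 24 h. Trim12a and Trim7 also held the element and were lower at 24 h, and they are not printed. Coordinates are GRCm38.p6.
Trim5, chr7:104288121-104288179, minus strand: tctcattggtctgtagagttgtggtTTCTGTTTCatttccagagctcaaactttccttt
Trim12c, chr7:104353344-104353402, minus strand: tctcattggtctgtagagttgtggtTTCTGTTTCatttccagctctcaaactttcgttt
Trim30a, chr7:104465195-104465253, minus strand: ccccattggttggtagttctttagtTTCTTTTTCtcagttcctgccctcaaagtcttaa
Trim30d, chr7:104507856-104507914, minus strand: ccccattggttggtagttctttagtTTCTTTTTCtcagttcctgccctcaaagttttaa
Trim34a, chr7:104244443-104244486, plus strand: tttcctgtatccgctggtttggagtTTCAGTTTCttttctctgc
Trim21, chr7:102565453-102565494, minus strand: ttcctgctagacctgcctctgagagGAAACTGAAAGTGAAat
Trim25, chr11:88999369-88999427, plus strand: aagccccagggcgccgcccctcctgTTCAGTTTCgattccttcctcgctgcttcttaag
Trim26, chr17:36836962-36837026, plus strand: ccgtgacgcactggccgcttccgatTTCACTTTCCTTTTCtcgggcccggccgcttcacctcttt

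Trim21 and Trim26 each held overlapping copies of the element, which is why their capitals run longer. The Trim5 stretch and that of Trim12a, which is not printed, were identical over the 59 bases around the element, and Trim12c differed from them at 3 of the 59. The Trim30a and Trim30d stretches differed at 1 of 59 bases. The other searched elements were found in 6 of the 46 genes for the core of the antioxidant response element (TGACNNNGC, 13.99% of all genes with a window), 4 for the heat shock element core (GAANNTTC, 9.04%), 4 for an ATF4-type element (TGATGNAA, 4.51%) and 8 for the AP-1 element (TGANTCA, 8.97%). A match describes letters in a window and is not a measured binding site.

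Libraries held 26869195 to 31596784 counts at 4 h and 25016754 to 34877090 at 24 h, and log2 CPM of libraries of a group correlated across genes with r from 0.986 to 0.992. All 8 fibroblast markers were present, with a summed level of 4205 to 4689 CPM in treated libraries at 24 h and 11066 to 15323 CPM in vehicle libraries at 24 h, while 7 of 8 cardiomyocyte markers were under 1 CPM in every library. In bulk RNA, fewer cells of a type and less RNA per cell cannot be told apart. Levels are given as CPM, counts scaled to a common library size with TMM over the 12 libraries, or, between genes, as the deposited FPKM, which is per length. By mean FPKM, 33 TRIM genes reached 1 and 17 reached 10 in at least 1 group. Trim28 stood highest in vehicle at 4 h with 72.1 FPKM, followed by Trim47 with 60.9, Trim35 with 52.0, Trim8 with 49.5 and Trim44 with 31.6 FPKM. The 58 genes together took 2230 to 2383 CPM in treated libraries and 2176 to 2221 CPM in vehicle libraries at 4 h. At 24 h they took 1740 to 1837 CPM in treated libraries and 2006 to 2103 CPM in vehicle libraries. Neither time showed overlap, with the treated sums above the vehicle sums at 4 h and below them at 24 h.

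After 4 h, Trim59 fell, and Trim16 and Trim43c rose. These were 2 higher and 1 lower of the 45 TRIM genes that passed the filter on low counts, or 4.44% and 2.22%. Of all 15336 genes tested, 3.45% were called higher and 3.71% lower at an adjusted p under 0.05 (edgeR's quasi-likelihood test, Benjamini-Hochberg over all tested genes), so the share of TRIM genes was near the background. At an unadjusted p under 0.05 there were 10 of the 45 TRIM genes, against 23.4% of all tested genes. The log2 fold changes of those not called lay between -0.50 and 0.80.

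Trim59, which encodes a ligase anchored in the endoplasmic reticulum membrane (ENSMUSG00000034317, GRCm39 chromosome 3, 68942621 to 68952088), had 39.4, 33.7 and 34.8 CPM in treated libraries at 4 h, against 77.2, 59.5 and 65.2 CPM in vehicle libraries. At 24 h it had 24.0, 26.7 and 24.2 CPM in treated libraries, against 106.9, 107.4 and 103.7 CPM in vehicle libraries. The groups did not overlap at either time, and treated cells were lowest at 24 h while vehicle cells were highest then. The log2 fold change was -0.90 (SE 0.11, adjusted p = 6.01e-04) at 4 h and -2.09 (SE 0.059, adjusted p = 1.52e-16) at 24 h, where the level was 4.25-fold lower. The response at 24 h was lower than that at 4 h by an interaction of -1.18 (SE 0.13, adjusted p = 4.39e-07). Trim13, the other membrane-anchored gene, whose product acts in degradation from the endoplasmic reticulum, was called lower at 24 h at -0.47 (SE 0.14, adjusted p = 0.00471). At 4 h Trim13 stood at -0.46 (adjusted p = 0.0648), with treated libraries below vehicle libraries at both times.

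Trim16, whose product has no RING finger but acts as a ligase and binds NRF2, KEAP1 and SQSTM1 (ENSMUSG00000047821, chromosome 11, 62711057 to 62741634), had 152.2, 142.6 and 152.1 CPM in treated libraries at 4 h, against 104.4, 104.1 and 113.7 CPM in vehicle libraries. At 24 h the values were 109.8, 118.2 and 108.7 CPM in treated libraries and 52.9, 61.8 and 52.3 CPM in vehicle libraries. Treated libraries were above vehicle libraries at both times, and both groups were lower at 24 h than at 4 h. The log2 fold change was 0.47 (SE 0.080, adjusted p = 0.00469) at 4 h and 1.01 (SE 0.062, adjusted p = 3.66e-11) at 24 h, with a difference of 0.54 between them (SE 0.11, adjusted p = 2.65e-04). Fbxw10, which overlaps Trim16 on the same strand, had 1.87 CPM in treated and 1.68 CPM in vehicle cells at 24 h and was not called. At 4 h Fbxw10 had 5.65 CPM in treated and 3.79 CPM in vehicle cells (log2 fold change 0.58, adjusted p = 0.0651). Its part in the Trim16 count was not tested.

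Trim43c belongs to a set of near-identical copies known from the early mouse embryo (ENSMUSG00000067399, chromosome 9, 88721217 to 88730243), so that its reads and those of Trim43a may be split uncertainly. It had 0.820, 0.519 and 0.493 CPM in treated libraries at 4 h, against 0.152, 0.251 and 0.0359 CPM in vehicle libraries, a log2 fold change of 2.03 (SE 0.54, adjusted p = 0.0454). At 24 h it had 1.65, 1.29 and 0.798 CPM in treated libraries, against 0.269, 0.0659 and 0.120 CPM in vehicle libraries, a log2 fold change of 2.95 (SE 0.50, adjusted p = 2.45e-05). The groups did not overlap at either time, at a level below 1 FPKM throughout. The 4 h call ended under scaling to library totals (adjusted p = 0.0504), without treated replicate 1, 2 or 3 (0.155, 0.123 and 0.0986) and without vehicle replicate 1 or 3 (0.0604 and 0.133). It was also absent with DESeq2 and in the authors' deposited table. The antisense gene 9330159M07Rik overlaps it and had 14.9 CPM in treated and 1.85 CPM in vehicle cells at 24 h. Since the labels do not state that the kit marks strand, reads of the pair cannot be told apart.

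**Figure D1:**
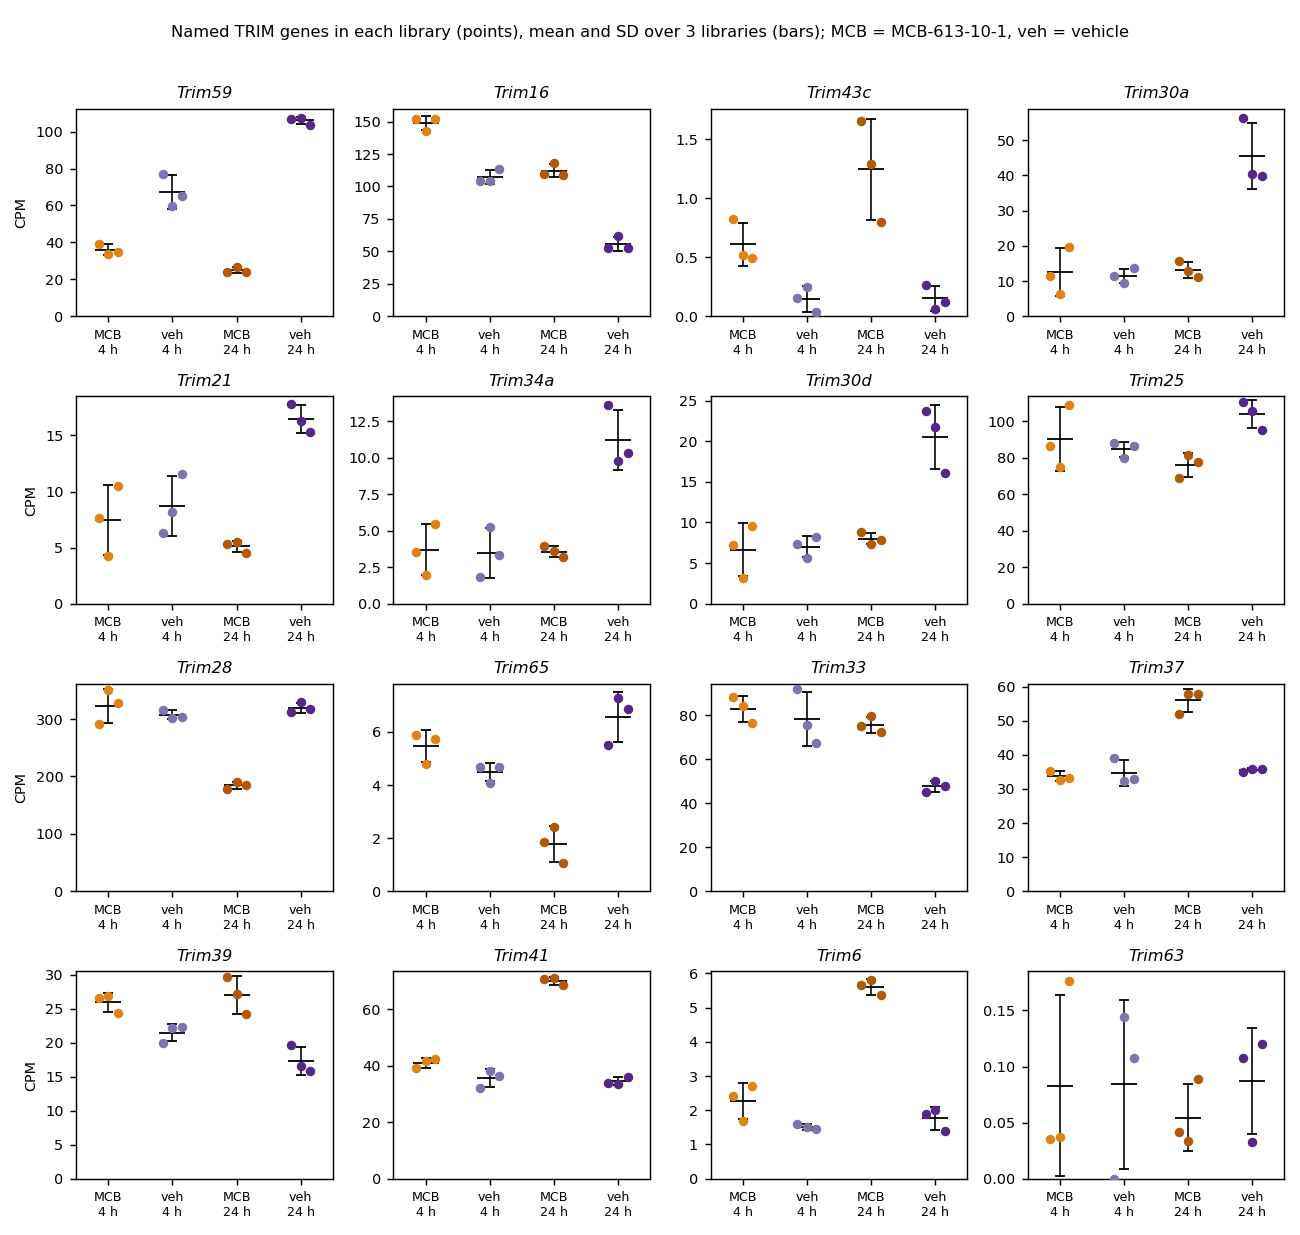
Level of the 16 TRIM genes named by rule, in CPM on a linear axis from 0, in each of the 12 libraries (points), with the mean and SD over 3 libraries (black bars). Trim59 in treated libraries lay at 24.0 to 26.7 CPM at 24 h, under every vehicle library, while Trim30a, Trim21, Trim34a and Trim30d were set apart at 24 h by high vehicle libraries and Trim41 and Trim6 by high treated libraries.

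After 24 h, 14 TRIM genes were higher and 21 lower in treated cells, of 45 that passed the filter, or 31.1% and 46.7%. Among all 15575 tested genes, 36.7% were called higher and 38.0% lower, so these shares are not read as a result about the family. Its median log2 fold change was -0.01, beside -0.02 for all genes. The change reached 2-fold in 9 of the higher and 11 of the lower genes. Treated libraries lay above all vehicle libraries for 15 TRIM genes, below them for 20, and overlapped for 10. Of all tested genes, 38.3% had every treated library above every vehicle library and 39.1% had every one below, so these counts too are near the background. In the authors' deposited table, 15 of the TRIM genes were higher and 20 lower at 24 h, and 1 was higher and 2 were lower at 4 h. Of the 44 genes tested at both times, 27 had the same sign at both, and Trim16, Trim43c and Trim59 were called at both. The matching shares of all genes were not computed, so these counts are not read as a result about the family. By mean FPKM over the groups, 3 of the 12 genes at 10 or more were higher and 5 lower; of the 19 genes between 1 and 10, 4 were higher and 11 lower; and of 14 tested genes under 1, 7 were higher and 5 lower.

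**Figure D2:**
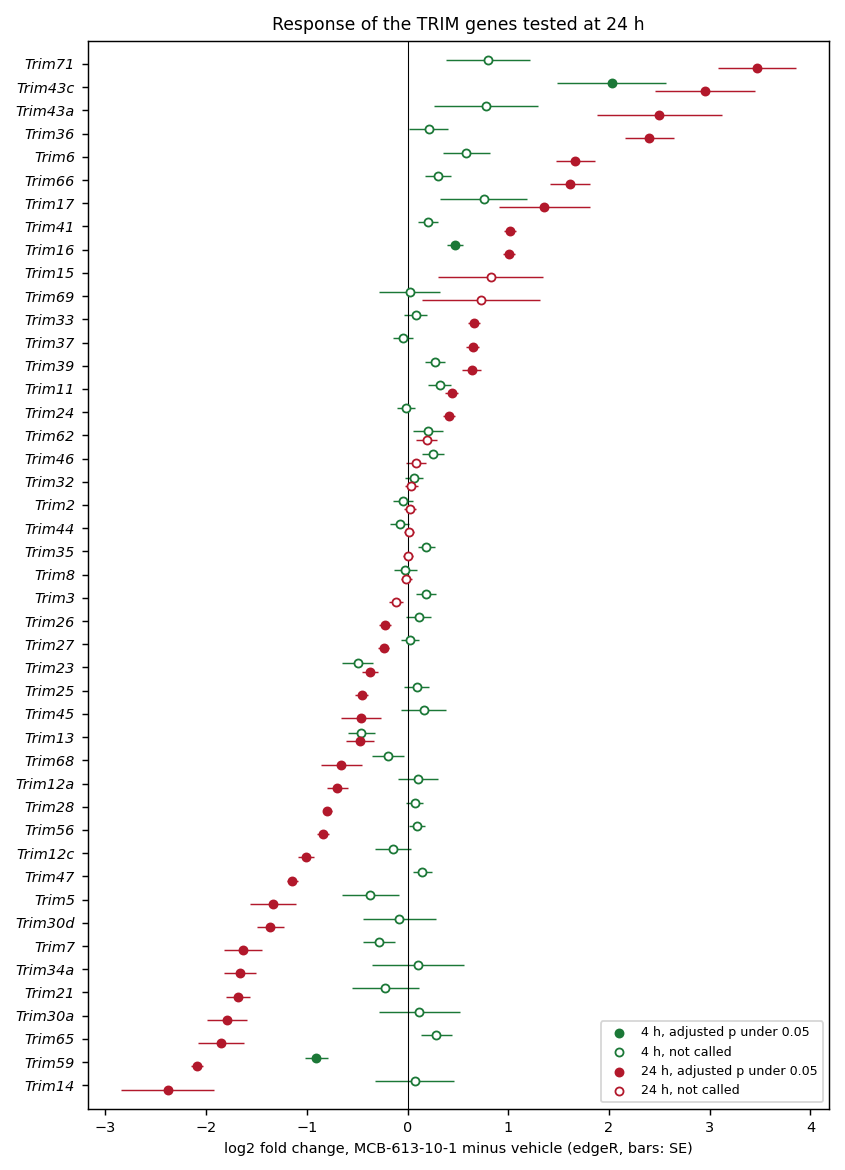
Log2 fold change of MCB-613-10-1 over vehicle for the 45 TRIM genes tested at 24 h, with the 4 h value above the 24 h value in each row where the gene was tested at 4 h, bars for the SE, and filled points for an adjusted p under 0.05. At 24 h the values ran from -2.38 for Trim14 to 3.47 for Trim71, and at 4 h the filled points were Trim16, Trim43c and Trim59.

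At 24 h the interferon-type TRIM genes were lower in treated than in vehicle cells. Of the 15 genes of this list, 11 were tested, and 11 were lower and 0 higher, beside 38.0% and 36.7% of all tested genes. Their median log2 fold change was -1.34, with a range of -2.38 to -0.23, against a median of -0.02 for all tested genes. The list was drawn up with earlier results of these data known, so its count is a description and not a test. At 4 h, 0 of the 11 were called in either direction, beside 3.45% higher and 3.71% lower of all tested genes. The median of the 11 was 0.09 at 4 h. Summed over the 15 genes, treated libraries held 246.5, 252.0 and 241.5 CPM at 24 h, against 446.6, 411.1 and 385.2 CPM in vehicle libraries. At 4 h the sums overlapped, at 295.9 to 374.1 CPM in treated and 298.2 to 329.5 CPM in vehicle libraries.

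Trim30a, an interferon-induced gene whose product dampens NF-kB signalling in mice (ENSMUSG00000030921, chromosome 7, 104058232 to 104114400), had 15.6, 12.9 and 11.1 CPM in treated libraries at 24 h, against 56.3, 40.5 and 39.8 CPM in vehicle libraries. The groups were far apart, and the log2 fold change was -1.79 (SE 0.20, adjusted p = 3.9e-04). At 4 h it had 11.4, 6.22 and 19.7 CPM in treated libraries, which enclosed the 11.3, 9.59 and 13.6 CPM of vehicle libraries. Between 24 h and 4 h the treated libraries differed by 0.08 on the log2 scale (SE 0.37, adjusted p = 0.861), and the vehicle libraries were 3.96-fold higher at 24 h than at 4 h (adjusted p = 0.00127).

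Trim21, the cytosolic receptor for antibody-coated particles and a ligase that acts on SQSTM1 (ENSMUSG00000030966, chromosome 7, 102207128 to 102214693), had 5.32, 5.51 and 4.56 CPM in treated libraries at 24 h, against 17.8, 16.3 and 15.3 CPM in vehicle libraries. It was 3.21-fold lower (log2 fold change -1.68, SE 0.12, adjusted p = 1.24e-10), with no overlap. At 4 h its libraries overlapped, at 4.26 to 10.5 CPM in treated and 6.34 to 11.6 CPM in vehicle cells (log2 fold change -0.22, adjusted p = 0.74).

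Trim34a (ENSMUSG00000056144) had 3.92, 3.58 and 3.19 CPM in treated libraries at 24 h, against 13.6, 9.76 and 10.3 CPM in vehicle libraries, a log2 fold change of -1.66 (SE 0.16, adjusted p = 9.59e-09). Trim30d (ENSMUSG00000057596) had 8.78, 7.40 and 7.84 CPM in treated libraries at 24 h, against 23.7, 21.7 and 16.1 CPM in vehicle libraries, a log2 fold change of -1.36 (SE 0.14, adjusted p = 1.92e-07). Neither gene's groups overlapped at 24 h, and both genes' groups overlapped at 4 h. Trim25, which encodes the ligase that ubiquitinates RIG-I (ENSMUSG00000000275, chromosome 11, 88890202 to 88911119), changed less: 69.0, 81.5 and 77.8 CPM in treated libraries at 24 h, against 110.5, 105.8 and 95.5 CPM in vehicle libraries. Its log2 fold change was -0.46 (SE 0.065, adjusted p = 8.51e-06).

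The other interferon-type genes called lower at 24 h were Trim14, an adaptor of mitochondrial antiviral signalling (-2.38), Trim5 (-1.34), Trim12c (-1.01) and Trim12a (-0.70), which are mouse relatives of the primate retrovirus restriction factor TRIM5, Trim56, a ligase of cytosolic nucleic acid sensing (-0.84), and Trim26 (-0.23). Trim14 was at 0.166 to 0.753 CPM in treated and 1.32 to 2.70 CPM in vehicle libraries, and the antisense gene Nans overlaps it at 71.2 and 90.5 CPM. The Trim26 call ended when the 24 h response was fitted with all 12 libraries (adjusted p = 0.0547). The remaining 4 genes of the list, Trim30b, Trim30c, Trim34b and Trim38, did not pass the filter. Trim12a, Trim12c and Trim5, the Trim30 copies and the Trim34 copies are close paralogs, so the share of each in the counts is uncertain.

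A cluster of 10 genes lies on chromosome 7 between 103868000 and 104157056 (GRCm39), and its genes moved in both directions. Of the 10 genes, 7 were tested at 24 h. Of all tested genes, 38.0% were lower and 36.7% higher. In the cluster 6 were lower (Trim5, Trim12a, Trim12c, Trim30a, Trim30d and Trim34a) and 1 was higher. The higher gene was Trim6, whose human product builds free ubiquitin chains that activate the kinase IKK epsilon (ENSMUSG00000072244, chromosome 7, 103868000 to 103884359). Trim6 had 5.65, 5.81 and 5.36 CPM in treated libraries at 24 h, against 1.89, 2.01 and 1.38 CPM in vehicle libraries, a 3.17-fold rise (log2 fold change 1.67, SE 0.19, adjusted p = 1.91e-07). At 4 h it had 2.42, 1.70 and 2.71 CPM in treated libraries and 1.61, 1.51 and 1.44 CPM in vehicle libraries, without overlap but short of the threshold (adjusted p = 0.162).

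The response elements described above can be read beside these calls. Among the 19 TRIM genes that were lower at 24 h and had a promoter window, 10 held GAAANNGAA. It was found in 0 of the 8 higher genes with a window, 1 of the 7 genes that were not called and 1 of the 12 that were not tested. The higher genes Trim11, Trim16, Trim17, Trim33, Trim36 and Trim43c had no window, nor did the lower genes Trim14 and Trim65. Trim5, Trim12a and Trim12c have nearly the same stretch, as do Trim30a and Trim30d, so their matches are not independent. Trim56, which was lower at 24 h, held no match in its window. Trim2, which held 1, had a log2 fold change of 0.03 at 24 h.

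Interferon-stimulated genes outside the family were lower as well. Of 24 such genes, 24 were lower at 24 h, beside 38.0% of all tested genes, with a median log2 fold change of -2.40. At 4 h 0 of the 24 were called, beside 3.45% higher and 3.71% lower of all tested genes. Ifit1 fell by 4.12 and Cxcl10 by 3.97 on the log2 scale. Their summed level was 350.9, 319.4 and 300.2 CPM in treated libraries at 24 h, against 1711, 1340 and 1152 CPM in vehicle libraries. At 4 h the sums varied within groups, at 493.9, 263.9 and 766.1 CPM in treated and 435.2, 535.3 and 709.6 CPM in vehicle libraries. Among the treated libraries at 4 h, Trim30a, Trim21, Trim34a and Trim30d were each lowest in replicate 2 and highest in replicate 3, as was this sum.

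The signalling partners of TRIM proteins in the RIG-I and interferon pathway included 3 higher and 9 lower genes of 15 tested at 24 h. Of all tested genes, 36.7% were higher and 38.0% lower at that time. Irf7, a transcription factor of the interferon response, fell by 2.58 on the log2 scale, at 12.8 ± 1.60 CPM in treated and 76.0 ± 18.7 CPM in vehicle cells (SD, n = 3 each). Pml, a TRIM family member under another name that forms nuclear bodies and is induced by interferon, fell by 1.83 (adjusted p = 4.29e-15). Mid2 rose by 0.67 (adjusted p = 1.05e-08), and Mid1 stood at 0.02 (adjusted p = 0.845).

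Macrophage and leukocyte markers were mostly lower in treated cells at 24 h. Of 10 markers, 9 were lower and 1 higher, beside 38.0% and 36.7% of all tested genes. Their summed level at 24 h was 153.4 to 177.2 CPM in treated and 373.7 to 441.2 CPM in vehicle libraries. At 4 h the sum was 71.0 to 94.2 CPM in treated and 98.6 to 111.0 CPM in vehicle libraries. In vehicle cells 10 of the 10 were higher at 24 h than at 4 h, beside 27.4% of all tested genes. Each of the 10 reached 1 CPM in some library. Of 8 fibroblast markers, 6 were lower and 1 higher at 24 h, and of 8 endothelial markers 5 were lower and 3 higher. Of 6 tested smooth muscle and pericyte markers, 4 were lower and 0 higher. Of 6 tested epicardial and mesothelial markers, 3 were lower and 1 higher, and the 1 tested cardiomyocyte marker was lower. The part of any of these cell types in the lower level of the interferon-type TRIM genes was not tested.

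**Figure D3:**
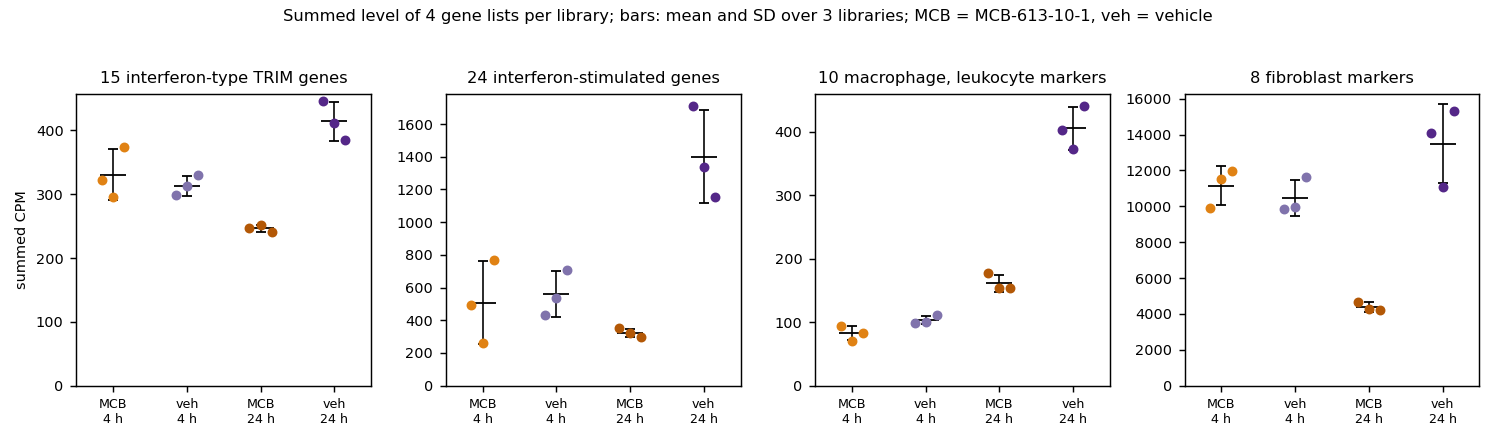
Summed CPM of the 15 interferon-type TRIM genes, 24 other interferon-stimulated genes, 10 macrophage and leukocyte markers and 8 cardiac fibroblast markers in each library (points), with the mean and SD over 3 libraries (black bars). At 24 h the treated libraries lay below the vehicle libraries in every panel, for instance at 241.5 to 252.0 CPM and 385.2 to 446.6 CPM for the TRIM genes, and at 4 h the TRIM, interferon-stimulated and fibroblast sums overlapped between the groups.

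The chromatin-bound PHD and bromodomain genes split at 24 h, with Trim24, Trim33 and Trim66 higher and Trim28 lower. Trim28, the corepressor that KRAB zinc finger proteins recruit to silence retroelements (ENSMUSG00000005566, chromosome 7, 12733041 to 12764962), had 177.4, 190.3 and 185.0 CPM in treated libraries at 24 h, against 312.2, 328.9 and 316.7 CPM in vehicle libraries. The log2 fold change was -0.80 (SE 0.045, adjusted p = 4.77e-12), and at 4 h the groups overlapped (0.07, adjusted p = 0.673). Trim28 made up 10.0% to 10.6% of the family's summed CPM in treated and 14.8% to 15.8% in vehicle libraries at 24 h. The antisense gene Zbtb45 overlaps it, at 14.5 CPM in treated and 24.0 CPM in vehicle cells at 24 h.

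Trim33, whose product is a ligase of the SMAD pathway (ENSMUSG00000033014, chromosome 3, 103186609 to 103266091), had 75.0, 79.5 and 72.5 CPM in treated libraries at 24 h, against 45.2, 50.1 and 47.8 CPM in vehicle libraries. Its log2 fold change was 0.66 (SE 0.058, adjusted p = 4.22e-09). At 4 h it had 76.4 to 88.2 CPM in treated and 67.4 to 91.9 CPM in vehicle libraries, so that the vehicle group at 24 h was the low one. Trim24, a coregulator of nuclear receptors and a ligase of p53, rose by 0.41 (adjusted p = 4.42e-06). Trim66 was higher in treated cells by 1.61 (adjusted p = 4.77e-07), at a level under 1 FPKM in all groups. Its mean was lower at 24 h than at 4 h in both arms. It went from 8.58 to 5.3 CPM in treated cells and from 6.96 to 1.71 CPM in vehicle cells. Among 11 genes that work with TRIM28 in silencing, 7 were lower and 0 higher at 24 h, beside 38.0% and 36.7% of all tested genes. Cbx3 fell by 2.01 and Cbx5 by 1.95 on the log2 scale, both of which encode heterochromatin protein 1 subtypes.

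Genes of oxidative stress and autophagy listed beside Trim16 and Trim21 were mostly higher, with 9 higher and 1 lower of 10 at 24 h and 5 higher at 4 h. This list too was drawn up with earlier results of these data known, so its counts are a description and not a test. Of all tested genes, 36.7% were higher and 38.0% lower at 24 h, and 3.45% were higher at 4 h. Hmox1 (heme oxygenase 1) had 10781 ± 321.6 CPM in treated and 527.2 ± 8.70 CPM in vehicle cells at 24 h (SD, n = 3 each), and rose by 4.35 on the log2 scale. Sqstm1, the autophagy receptor, had 10383 ± 771.1 CPM in treated and 1184 ± 62.8 CPM in vehicle cells, and rose by 3.13 on the log2 scale. Keap1, the NRF2 inhibitor, rose by 0.52 (adjusted p = 1.63e-08), and Tfeb, the lysosomal transcription factor, was the 1 that fell, at -0.62. Within the TRIM genes tied to autophagy or oxidative stress the picture was mixed: of 6, Trim16 was higher, Trim13, Trim21, Trim28 and Trim65 were lower, and Trim32 had a log2 fold change of 0.04.

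Trim65, whose product ubiquitinates the RNA sensor MDA5 (ENSMUSG00000054517, chromosome 11, 116012672 to 116021954), had 1.86, 2.42 and 1.06 CPM in treated libraries at 24 h, against 5.49, 7.29 and 6.86 CPM in vehicle libraries. It was 3.61-fold lower (log2 fold change -1.85, SE 0.23, adjusted p = 1.02e-06). At 4 h the treated libraries lay above the vehicle libraries, at 5.88, 4.78 and 5.74 CPM against 4.69, 4.09 and 4.67 CPM, without a call (adjusted p = 0.301), and the difference between the times was -2.13 (SE 0.29, adjusted p = 6.78e-06). Trim47 overlaps Trim65 on the same strand and had 62.6, 57.7 and 57.5 CPM in treated libraries at 24 h, against 134.1, 132.2 and 124.4 CPM in vehicle libraries (log2 fold change -1.14, SE 0.053, adjusted p = 2.09e-13). Of the other lower PRY-SPRY genes, Trim7 was at -1.64, Trim68 at -0.66 and Trim27 at -0.24. The PRY-SPRY class as a whole had 8 higher and 15 lower genes of 27 tested, beside 36.7% and 38.0% of all tested genes.

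Trim41, whose human product is a ligase of protein kinase C (ENSMUSG00000040365, chromosome 11, 48697231 to 48708180), had 70.8, 70.9 and 68.5 CPM in treated libraries at 24 h, against 33.9, 33.6 and 36.1 CPM in vehicle libraries. It was 2.02-fold higher (log2 fold change 1.02, SE 0.059, adjusted p = 6.68e-12), and the spread within each group was small. The antisense gene Rack1 overlaps it and is far more abundant, at 1871 CPM in treated and 1236 CPM in vehicle cells at 24 h (log2 fold change 0.59); its part in the Trim41 count was not tested. At 4 h Trim41 was at 0.21 on that scale (adjusted p = 0.229).

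Trim37, a ligase mutated in human mulibrey nanism (ENSMUSG00000018548, chromosome 11, 87017903 to 87111509), had 52.0, 58.0 and 57.9 CPM in treated libraries at 24 h, against 35.1, 35.8 and 36.0 CPM in vehicle libraries, a log2 fold change of 0.65 (SE 0.062, adjusted p = 1.61e-08). At 4 h its groups overlapped. Trim39, an inhibitor of the anaphase-promoting complex (ENSMUSG00000045409, chromosome 17, 36569765 to 36583139), had 29.7, 27.1 and 24.2 CPM in treated libraries at 24 h, against 19.6, 16.5 and 15.8 CPM in vehicle libraries, a log2 fold change of 0.64 (SE 0.097, adjusted p = 1e-05). Its treated libraries were also above the vehicle libraries at 4 h, where it was not called (0.27, adjusted p = 0.132). Trim11 rose by 0.44 (adjusted p = 6.83e-06).

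Of the 14 genes higher at 24 h, 6 had a mean FPKM under 1 in both groups, and these include the largest fold changes. Trim71, an NHL-repeat gene of stem cells, had 2.35, 1.86 and 1.91 CPM in treated libraries, against 0.135, 0.198 and 0.211 CPM in vehicle libraries, a log2 fold change of 3.47 (SE 0.39, adjusted p = 1.16e-07). Trim36, which binds microtubules, had 3.42, 3.98 and 4.52 CPM in treated libraries, against 0.727, 0.857 and 0.662 CPM in vehicle libraries (log2 fold change 2.40, SE 0.25, adjusted p = 3.6e-08). Neither gene's groups overlapped. Trim43a was at 2.50 and Trim17 at 1.36, and the Trim17 call ended with DESeq2 (adjusted p = 0.0547) and without treated replicate 1 (adjusted p = 0.059).

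The remaining classes had 2 to 4 tested genes each. Of the other NHL-repeat genes, Trim2 had a log2 fold change of 0.03, Trim3 of -0.11 and Trim32 of 0.04 at 24 h. In the COS-box class Trim36 rose, and Trim46 had a log2 fold change of 0.08. Trim23, which carries an ARF domain, and Trim45 were lower at -0.37 and -0.46, and the Trim45 call ended with DESeq2 (adjusted p = 0.112), with all 12 libraries (0.0774), with limma-trend on FPKM (0.0905), without treated replicate 1 or 2 (0.164 and 0.137) and without vehicle replicate 2 (0.225). Trim8, Trim35 and Trim44, among the most abundant members, had log2 fold changes of -0.01, 0.01 and 0.01 at 24 h. Altogether 10 tested genes were not called, between -0.11 and 0.83.

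The 13 genes that did not pass the filter at 24 h had 21 to 141 counts over the 12 libraries and at most 0.329 FPKM in any group. Among them was Trim63, the muscle ligase MuRF, which had 0.0412, 0.0332 and 0.0886 CPM in treated libraries and 0.108, 0.033 and 0.120 CPM in vehicle libraries at 24 h, with overlap. Trim72, another muscle gene, was tested at 4 h and not called (adjusted p = 0.554). Trim9, a gene of neurons, had 18, 14 and 3 counts in treated libraries at 24 h and 0 in each vehicle library, where a count of 0 allows up to 3 counts. Trim29 had 13, 12 and 6 counts in treated libraries and 1, 0 and 0 in vehicle libraries at 24 h. Without the filter, Trim9 had an adjusted p of 1.6e-06 and Trim29 of 7.36e-05.

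The response differed between the times for 26 TRIM genes. In the interaction fit over all 12 libraries, 10 of 46 tested genes had a higher response at 24 h than at 4 h and 16 had a lower one, or 21.7% and 34.8%, against 26.7% and 27.1% of all genes. The largest differences among genes at 1 FPKM or more in at least 1 group were -2.13 for Trim65, -1.90 for Trim30a (SE 0.51, adjusted p = 0.0112) and -1.76 for Trim34a (SE 0.54, adjusted p = 0.0163) on the low side. The Trim34a difference lost its call without the filter (adjusted p = 0.0573). On the high side they were 1.09 for Trim6 (SE 0.30, adjusted p = 0.00451), 0.82 for Trim41 (SE 0.11, adjusted p = 5.1e-06) and 0.70 for Trim37 (SE 0.12, adjusted p = 7.35e-05). Trim65 and Trim6 reached 1 FPKM in a single group each, vehicle at 24 h with 1.06 and treated at 24 h with 1.09 FPKM, which is the group where they were high, so their place in this order rests in part on that minimum. Of the 11 tested interferon-type genes, 10 had a lower response at 24 h.

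Levels also differed between the times within each treatment. In treated cells, 12 TRIM genes were higher and 15 lower at 24 h than at 4 h, against 30.0% and 31.9% of all genes. In vehicle cells, 15 were higher and 14 lower at 24 h than at 4 h, against 27.4% and 27.0% of all genes. Of the 11 tested interferon-type genes, 3 were higher in treated cells (Trim5, Trim12a and Trim12c) and 1 was lower (Trim56), while in vehicle cells 10 were higher and Trim56 was lower. Both comparisons share libraries with those above, and these contrasts were added after the data were seen. The group means in the 24 h table carry a name prefix that those at 4 h lack, so whether the 24 h libraries differ from the 4 h libraries in more than time is not known.

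**Figure D4:**
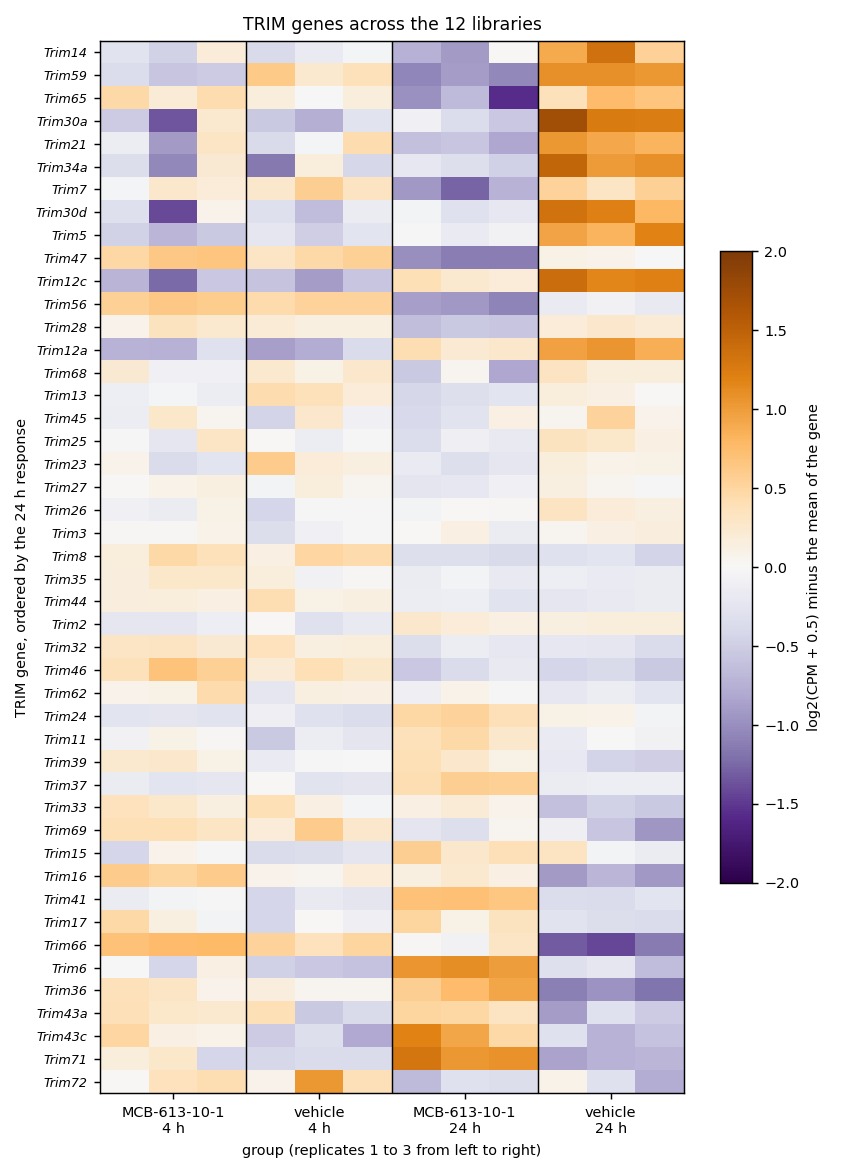
Log2(CPM + 0.5) of the 46 TRIM genes tested over all 12 libraries, minus the mean of each gene, with genes ordered by the 24 h response and libraries in columns by group; colours are cut at -2 and 2, and Trim72, not tested at 24 h, is last. The interferon-type genes near the top, such as Trim30a at 39.8 to 56.3 CPM, are highest in the vehicle libraries at 24 h. Trim6 and Trim71 are highest in the treated libraries at 24 h, while Trim16 and Trim66 are highest in the treated libraries at 4 h.

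By position, 16 of the 58 genes lie on chromosome 7, where 9 of 12 tested genes were lower and 2 higher at 24 h, and 6 of the 9 belong to the cluster of related copies described above. Chromosome 11 held 10 genes, of which 5 were higher and 4 lower of 9 tested. Over all chromosomes, 36.7% of tested genes were higher and 38.0% lower, and no share on a single chromosome was compared, so the counts describe where the genes lie.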

How the data were processed

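RNA was sequenced from 12 libraries in 4 groups of 3. Per the submitters' processing notes, the tools were HISAT2 2.0.5, featureCounts 1.5.0-p3 and DESeq2, with GRCm39. Per the file headers, the authors deposited for each time a table of raw read counts per gene, a signal of counts divided by a size factor per library, FPKM, and log2 fold changes with p-values and adjusted p-values. The counts were tested with edgeR 4.0.16 (limma 3.58.1, R 4.3.3): default filter on low counts, TMM scaling, quasi-likelihood test without a replicate block, Benjamini-Hochberg adjustment over all tested genes, threshold 0.05. Each time was fitted on its own 6 libraries, and the difference and the time contrasts on all 12. SE is the standard error of a log2 fold change, treated minus vehicle or 24 h minus 4 h. FPKM was used for levels between genes and, with a pseudocount of 1, in limma-trend as an alternative. DESeq2 1.42.0, no filter, library totals, all libraries, a replicate block and leaving out each library were the other alternatives.

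The members and gene lists were chosen with earlier results of these data known. The rule named genes called at 4 h, the 6 largest rises and falls at 24 h and the 3 largest differences each way at 1 FPKM or more, Trim16, Trim21, Trim25, Trim28, Trim30a and Trim63, and, outside the family, the 2 called genes per list that changed most at 24 h plus Pml, Mid1, Mid2, Sqstm1 and Keap1. Other genes were named after their values were seen. For 1 list, 1 gene that the rule names is not reported here. RefSeq sequences are GRCm38.p6, and no coordinates were moved between builds. No protein sequence was used here.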

Additional observations from a re-analysis of the deposited data

Results flagged for a closer look

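The response of 26 TRIM genes differed between 24 h and 4 h by the interaction test over 12 libraries, at an adjusted p under 0.05, which is what marked them here. Values are differences of log2 fold changes, 24 h minus 4 h. The 16 negative ones were Trim14 at -2.44, Trim65 at -2.13, Trim30a at -1.90, Trim34a at -1.76, Trim21 at -1.46, Trim7 at -1.35, Trim47 at -1.28, Trim30d at -1.28, Trim59 at -1.18, Trim5 at -0.96, Trim56 at -0.93, Trim28 at -0.86, Trim12c at -0.86, Trim12a at -0.80, Trim25 at -0.54 and Trim27 at -0.25. The 10 positive ones were Trim39 at 0.37, Trim24 at 0.43, Trim16 at 0.54, Trim33 at 0.58, Trim37 at 0.70, Trim41 at 0.82, Trim6 at 1.09, Trim66 at 1.32, Trim36 at 2.19 and Trim71 at 2.67.
The calls of some of these depend on single libraries or settings. In the alternatives in which the call ended, the adjusted p was 0.0571 to 0.133 for Trim27, 0.0546 to 0.222 for Trim39, 0.0604 to 0.0884 for Trim30d and 0.0521 to 0.059 for Trim5. For Trim34a it was 0.0573 without the filter and 0.0565 with the replicate block. Trim27, Trim39 and Trim30d each lost the call in 8 of the 12 fits that left out 1 library, and Trim5 in those without treated 4 h replicate 1, vehicle 24 h replicate 3 or vehicle 4 h replicate 2.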

How the results depend on the processing

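At 4 h, the 2 higher genes became 1 with DESeq2 and 1 with library totals, without Trim43c in both, and 1 to 3 when 1 library was left out. The 1 lower gene became 2 with DESeq2, 2 with library totals, 2 with no filter, 3 with all 12 libraries and 3 with the replicate block, which added Trim13, Trim23 or both, and it was 1 in each fit without 1 library. The share of the 4 h calls that were higher was 66.7% and became 33.3% with library totals. Over the fits without 1 library, 24 h calls were 13 to 17 higher and 20 to 21 lower, and differences between the times 9 to 12 higher and 14 to 17 lower. Library totals moved the median of all genes at 24 h to -0.21 and gave 14 higher and 27 lower TRIM genes, with Trim2, Trim3, Trim8, Trim32, Trim35 and Trim44 added. The 11 lower interferon-type genes were 11 in all alternatives except the fit of all 12 libraries, which gave 10. With the replicate number as a block, 16 genes were higher and 21 lower at 24 h. Same-numbered libraries had correlations of their deviations of 0.073, 0.060 and 0.090 at 4 h and 0.022, 0.014 and -0.031 at 24 h. Differently numbered libraries had -0.088 to 0.019 at 4 h, below every same-numbered value, and -0.077 to 0.060 at 24 h, which overlapped. Whether the numbers mark pairs was not tested, and the main fits did not use them as pairs. The block added Trim11 to the higher genes and Trim13 and Trim23 to the lower genes at 4 h. The differences between the times of Trim30d, Trim34a, Trim39, Trim5 and Trim27 lost their call in at least 1 alternative. For single genes, 1357 values kept their side of the threshold, 52 lost and 21 gained a call, and no value changed direction past the threshold; the cause was not tested. Counting error limits the genes under 1 CPM most.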
